A study of Mus musculus with 3 samples.

Results

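10 genes that mark or specify deep-layer cortical neurons were followed by symbol through the UMI counts of sorted *tdTomato*+ cells of the medial prefrontal cortex (mPFC) at P5, and all 10 were among the 14933 genes of the filtered table. They were *Tbr1*, *Fezf2*, *Bcl11b*, *Ldb2*, *Etv1*, *Crym*, *Foxp2*, *Tle4*, *Sox5* and *Nr4a2*. Each library came from C57Bl6 mice that carried *Rbp4cre* and the *tdTomato* reporter, and there was 1 library for each of wild-type (Rbp4cre::tdTomato), *Tbr1* layer 5 heterozygous (Tbr1f/+::Rbp4cre::tdTomato) and homozygous (Tbr1f/f::Rbp4cre::tdTomato) mice. The study used *Rbp4cre* to delete the floxed *Tbr1* alleles in layer 5 projection neurons and not in the whole cortex, and recombination was not measured here. The number of mice behind a library is not given in the sources used here. With 1 library per genotype no value has a replicate error and no test between genotypes was possible, and every interval below is a 95% interval of counting error only.

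Projection neurons of the deep layers are sorted into classes by transcription factors that restrain one another. *Fezf2* and *Bcl11b* (CTIP2) are required for subcerebral neurons of layer 5, *Tbr1* represses that fate in corticothalamic neurons of layer 6, and *Sox5* times the production of these classes. *Ldb2*, *Etv1* and *Crym* serve as markers of layer 5 neurons, while *Tle4* and *Foxp2* mark layer 6, and *Nr4a2* (NURR1) marks subplate and claustrum. Several are not restricted to cortex, as *Bcl11b* and *Foxp2* are also high in medium spiny neurons of the striatum.

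The floxed part of *Tbr1* was exons 2 and 3, and its sequence is shown because it decides what the counts can say about the deletion. On GRCm38 *Tbr1* (ENSMUSG00000035033) spans chr2:61802930-61814114 on the plus strand. In the annotated transcript with 6 exons, exon 2 lies at chr2:61805974-61806128 and exon 3 at chr2:61806632-61806753, and both are coding throughout. In the run below, read 5′ to 3′ from the GENCODE vM21 transcript, capitals mark exons 2 and 3 and lower case the 10 neighboring bases of exons 1 and 4.
*Tbr1* exons 2 and 3: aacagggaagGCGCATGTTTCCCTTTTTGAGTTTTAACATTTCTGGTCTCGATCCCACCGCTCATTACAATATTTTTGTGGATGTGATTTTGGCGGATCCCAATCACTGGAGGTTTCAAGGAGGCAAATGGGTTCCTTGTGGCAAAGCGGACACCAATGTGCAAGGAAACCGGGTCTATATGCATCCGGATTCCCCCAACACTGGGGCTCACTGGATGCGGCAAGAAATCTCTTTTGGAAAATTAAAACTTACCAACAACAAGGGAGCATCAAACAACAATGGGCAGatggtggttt
The capitals hold 277 bases, which is 1 more than a multiple of 3. Joining exon 1 to exon 4 in this sequence shifts the frame and gives a stop codon 19 codons after the junction, at codon 250, whereas the full frame ends at codon 682. The kit counts the 3′ ends of transcripts, and the last exon, at chr2:61811583-61814114, lies outside the floxed part, so a *Tbr1* UMI does not show whether the allele was intact.

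The other members were placed on GRCm38 as follows. *Fezf2* lies at chr14:12342094-12348189, *Bcl11b* at chr12:107910403-108003602 and *Etv1* at chr12:38779380-38870484. *Ldb2* lies at chr5:44472132-44799680, *Crym* at chr7:120186380-120202111 and *Tle4* at chr19:14448150-14598051. *Foxp2* (chr6:14901349-15441977) and *Sox5* (chr6:143828425-144781977) share a chromosome, and *Nr4a2* (chr2:57106830-57124003) shares one with *Tbr1*. All 10 are annotated as protein coding.

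The cells fell into the classes of the authors' lists. Typical neuronal cells, which the study kept for its comparison, numbered 1778, 5357 and 3935 from the wild-type to the homozygous library, with median depths of 1901, 1743 and 1375 UMIs. The shallowest typical cell had 1533, 1196 and 1040 UMIs in the same order, so the lowest depth kept also differed between libraries. Atypical neuronal cells, which the study set apart by clustering for low excitatory markers, numbered 304, 107 and 462 in the same order. A further 2873, 1398 and 1182 filtered cells lay outside the neuronal table. Between 37 and 58 barcodes were shared by each pair of libraries. The label of the typical cells was checked against 9 excitatory markers, whose summed level was 381, 472 and 463 CPM (UMIs per 1000000 UMIs of the cells summed), where lists of 3 values run from the wild-type to the homozygous library. The same sum was 238, 355 and 315 CPM in empty droplets, that is barcodes with 100 to under 500 UMIs, which hold free RNA of the suspension. By the marker rule given further on, 2, 15 and 13 typical cells were placed in the excitatory set. The rule also needs a larger sum than any other list, and astroglial markers summed to 6240, 5248 and 6144 CPM in typical cells. So these counts do not show how many typical cells held excitatory markers. In cells of the excitatory set outside the neuronal table the 9 markers summed to 1520, 1523 and 2067 CPM. Those cells were chosen by these same 9 markers, so a high sum is built in and is no reference level for typical cells.

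In typical neuronal cells the members were lowly detected, and *Bcl11b* and *Crym* led in the wild-type library. *Bcl11b*, a zinc-finger factor needed for corticospinal axons, had 73.0 CPM (64.5 to 82.3) in wild-type, 59.0 in heterozygous and 76.4 in homozygous cells. *Crym*, which encodes a thyroid hormone binding protein, had 72.7, 64.9 and 57.6 CPM in that order. Their order was not resolved in wild-type cells, where the intervals overlapped, and in heterozygous cells the intervals of both also overlapped that of *Ldb2*. In homozygous cells *Bcl11b* (69.6 to 83.7) lay above *Crym* (51.7 to 64.0). *Ldb2*, a cofactor of LIM-domain factors, had 55.0, 57.7 and 48.1 CPM, and *Fezf2*, the zinc-finger selector of subcerebral fate, had 43.0, 47.8 and 52.0 CPM. The intervals of *Ldb2* and *Fezf2* overlapped in wild-type and homozygous cells and not in heterozygous cells (53.2 to 62.5 against 43.7 to 52.2).

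A middle group followed. *Tle4*, a Groucho-family corepressor, had 30.5, 25.9 and 30.3 CPM, and *Etv1*, an ETS factor, had 30.2, 22.8 and 31.6 CPM. *Sox5*, an SRY-box factor, had 28.1, 24.0 and 25.7 CPM. *Tbr1* itself had 27.5 CPM in wild-type cells from 101 UMIs, 30.7 in heterozygous cells from 320 UMIs and 22.4 in homozygous cells from 136 UMIs. At the bottom *Foxp2*, a forkhead factor, had 6.81, 5.09 and 8.23 CPM, and the nuclear receptor *Nr4a2* had 2.18, 9.21 and 5.10 CPM from 8, 96 and 31 UMIs. In every library the intervals of neighbors in the order of this middle group overlapped. Beyond neighbors, *Tbr1* (27.4 to 34.3) lay above *Etv1* (up to 25.9) and *Sox5* (21.1 to 27.2) in heterozygous cells, and below *Etv1* (18.8 to 26.5 against 27.3 to 36.4) in homozygous cells. These levels compare 3′ tags, 1 per molecule, and are not affected by transcript length.

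**Figure D1:**
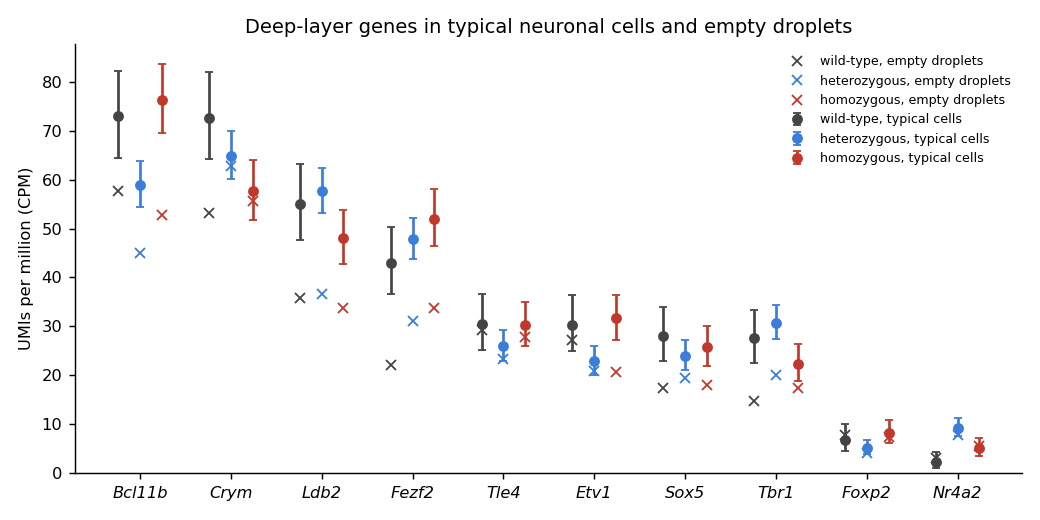
CPM of each gene in typical neuronal cells (circles, with 95% Poisson intervals) and in empty droplets (crosses), for the wild-type, heterozygous and homozygous libraries. *Tle4* and *Foxp2* lie close to their empty-droplet level in every library, while *Fezf2* lies above it in all 3.

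Levels in empty droplets were close to those of several members. *Fezf2* stood above the empty droplets in every library, at 43.0 against 22.2 CPM in wild-type (log2 ratio 0.96, 0.68 to 1.24), 47.8 against 31.1 in heterozygous and 52.0 against 33.7 in homozygous cells. *Ldb2* exceeded them by log2 ratios of 0.62, 0.65 and 0.51, *Bcl11b* by 0.34, 0.39 and 0.53 and *Sox5* by 0.70, 0.31 and 0.51. *Tbr1* exceeded them by 0.90 (0.55 to 1.25) in wild-type, 0.62 (0.35 to 0.90) in heterozygous and 0.37 (0.05 to 0.68) in homozygous cells. In contrast, the intervals of *Tle4*, *Foxp2* and *Nr4a2* included 0 in each library, and those of *Crym* did so in both mutant libraries. *Crym* stood at 0.45 (0.25 to 0.65) in wild-type cells. *Etv1* had 0.15 (-0.16 to 0.46), 0.13 (-0.16 to 0.42) and 0.61 (0.34 to 0.88), above the droplets in the homozygous library. Of 8 members with a mean of at least 10 CPM, 4 were higher past 1.5-fold over the empty droplets in wild-type, 3 in heterozygous and 2 in homozygous cells, beside 6.31%, 2.68% and 3.83% of all genes tested.

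Shares of cells were compared after each cell was thinned to 1000 UMIs, which left out no cell. *Bcl11b* was detected in 6.64% of wild-type typical cells (5.52 to 7.90), 5.26% of heterozygous and 7.34% of homozygous cells, against 13.5, 10.4 and 10.4% without thinning. *Tbr1* was detected in 2.59%, 2.80% and 2.34%, against 5.40, 5.64 and 3.35% without thinning, and the thinned intervals of all 3 libraries overlapped. These are shares of cells with a UMI at this depth and not shares of expressing cells. The study describes *Tbr1* in most excitatory neurons of layers 5 and 6 of frontal cortex, and at P5 in a majority of layer 5 pyramidal neurons. As a background, thinned endothelial marker cells, which should lack the gene, showed *Tbr1* in 0.350%, 2.04% and 0.680%, from 1, 2 and 1 cells, and the heterozygous interval (0.248 to 7.18) covers the share of typical cells. Their median depths were 3107, 2889 and 2316 UMIs. For *Tle4* the thinned share in typical cells was 2.70%, 2.54% and 3.23%. At equal depth 71.3, 72.3 and 70.5% of typical cells showed none of the 10 genes, against 49.9, 54.2 and 60.1% without thinning. The thinned share was 70.4, 74.9 and 74.5% in cells outside the neuronal table and 64.1, 62.6 and 57.4% in atypical cells. It is therefore not particular to typical cells.

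Between genotypes, no member with a mean of at least 10 CPM differed by more than 1.5-fold in typical cells. That was 0 of 8 in the heterozygous over wild-type comparison, where 7.63% of 6292 genes did, and 0 of 8 in the homozygous over wild-type comparison, where 7.15% of 6335 genes did. Both comparisons share the wild-type library. Over these 8 members the median log2 ratio was -0.20 for heterozygous and -0.07 for homozygous, beside 0.05 and 0.06 over all genes tested. In these summed libraries, fewer expressing cells and less RNA per cell cannot be told apart.

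*Tbr1* was the targeted gene. Its log2 ratio was 0.16 (-0.17 to 0.50) in heterozygous and -0.30 (-0.68 to 0.09) in homozygous over wild-type cells, and both intervals include 0. In empty droplets the ratios were 0.44 (0.14 to 0.73) and 0.24 (-0.03 to 0.51). Directly between the mutant libraries it was -0.46 (-0.76 to -0.16), the homozygous level being lower. As given above, the transcript end that the kit counts lies outside the deleted exons by annotation, and read positions were not examined. These UMIs therefore do not show whether the allele was intact.

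Intervals that excluded 0 were found for 2 of 8 members in heterozygous over wild-type cells, beside 35.7% of all genes, and for 1 of 8 in homozygous over wild-type cells, beside 32% of all genes. Neither count is above the share of all genes in either direction. The members so called were all lower, and 14.7% and 11.7% of all genes had intervals below 0. In that direction 2 of 8 is above the share and 1 of 8 near it, and the difference was not tested. *Bcl11b* was lower in heterozygous cells by a log2 ratio of -0.31 (-0.52 to -0.09) and *Etv1* by -0.40 (-0.74 to -0.07), while in homozygous cells they were at 0.07 and 0.06. Empty droplets of the heterozygous library were lower by a like amount, at -0.35 (-0.53 to -0.18) for *Bcl11b* and -0.38 (-0.64 to -0.12) for *Etv1*. Those of the homozygous library had -0.13 (-0.27 to 0.02) for *Bcl11b* and -0.39 (-0.61 to -0.17) for *Etv1*, so for *Etv1* the droplets were lower in both mutant libraries and the typical cells in the heterozygous library. Subtracting the empty-droplet profile moved 0 of 30 genotype ratios of the members by more than their counting interval. The part of free RNA in these ratios was not tested. *Crym* was lower in homozygous cells at -0.34 (-0.57 to -0.10) and stood at -0.16 (-0.37 to 0.05) in heterozygous cells, with droplet ratios of 0.07 (-0.08 to 0.21) and 0.24 (0.08 to 0.40). The remaining genes, *Fezf2*, *Ldb2*, *Tle4* and *Sox5*, had intervals that included 0 in both. Between the mutant libraries 0 of 8 members passed 1.5-fold, beside 1.75% of genes, and 4 of 8 had intervals that excluded 0, beside 20.3%. These were *Tbr1* and *Ldb2* (-0.26, -0.47 to -0.06), lower in homozygous cells, and *Bcl11b* (0.37, 0.19 to 0.55) and *Etv1* (0.47, 0.19 to 0.75), higher in them.

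*Nr4a2*, below 10 CPM and so outside these counts, was the one member with a ratio past 1.5-fold in both mutant libraries. Its log2 ratio was 2.08 (1.04 to 3.33) in heterozygous and 1.23 (0.07 to 2.56) in homozygous cells, with 8 UMIs in the wild-type library. In empty droplets the ratios were 1.37 (0.80 to 1.95) and 0.87 (0.31 to 1.43), and the interval of typical cells over droplets included 0 in each library. The subtraction given above does not measure the part of free RNA in this ratio, which was not tested. *Foxp2* had ratios of -0.42 (-1.13 to 0.33) and 0.27 (-0.45 to 1.03), so its direction against wild-type was not detectable at this depth. Between the mutant libraries *Foxp2* was higher in homozygous cells at 0.69 (0.11 to 1.28), from 50 UMIs against 53 in the larger heterozygous library, and *Nr4a2* lower at -0.85 (-1.49 to -0.25). In empty droplets *Foxp2* had 7.30 CPM in the homozygous and 3.99 CPM in the heterozygous suspension, and the part of free RNA was not tested here either.

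**Figure D2:**
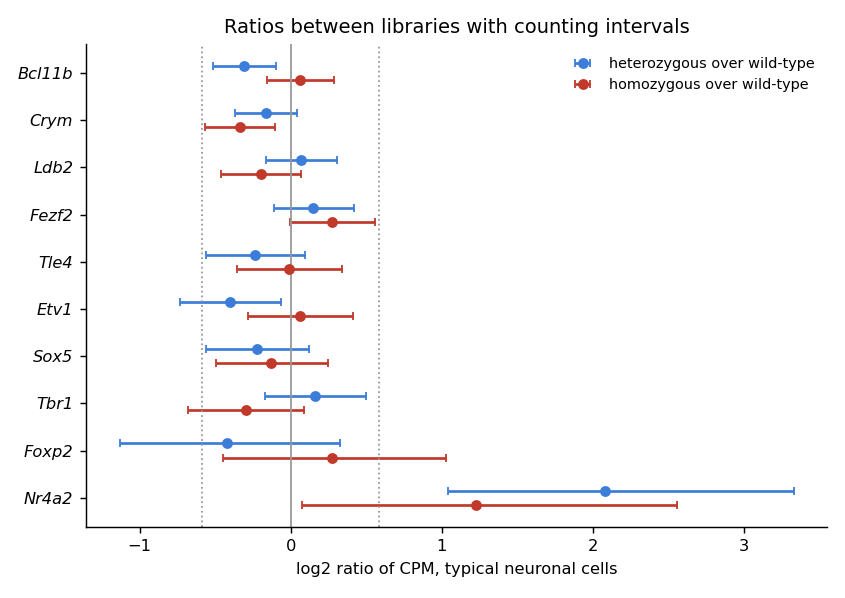
Log2 ratio of CPM in typical neuronal cells for heterozygous and homozygous over wild-type, with 95% intervals of counting error and dotted lines at 1.5-fold. *Nr4a2* lies at 2.08 and 1.23 with wide intervals, and the points of the other 9 members lie within the dotted lines.

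Other layer genes gave the setting. Of 38 measured other deep-layer genes, 19 passed 10 CPM, and of these 0 were higher and 1 lower past 1.5-fold in heterozygous over wild-type cells (*Tshz2*, 43.1 against 74.1 CPM). In homozygous over wild-type cells 1 of 19 was higher (*Pou3f1*, 154 against 90.7 CPM) and 1 lower (*Oma1*, 7.90 against 15.3 CPM). None passed in both mutant libraries. These 3 were named after their values were seen. In empty droplets *Tshz2* had a log2 ratio of -0.93 in heterozygous over wild-type, and *Pou3f1* had 0.77 and *Oma1* 0.03 in homozygous over wild-type, beside -0.78, 0.76 and -0.95 in typical cells. Of the upper-layer genes 1 of 11 was higher past 1.5-fold in heterozygous and 2 of 12 in homozygous cells, and 0 were lower, where 4.12% and 4.04% of all genes were higher and 3.51% and 3.11% lower. *Cux2*, a homeobox factor of the upper layers, passed in both, at 27.5 CPM in wild-type, 48.5 in heterozygous and 49.6 in homozygous cells, with log2 ratios of 0.82 (0.51 to 1.14) and 0.85 (0.52 to 1.19). In empty droplets its ratios were 0.36 (0.16 to 0.57) and 0.38 (0.20 to 0.56), and its wild-type level there, 31.8 CPM, was not below that of wild-type typical cells. The other, *Plxnd1*, named after its values were seen, had 14.8 against 8.17 CPM in homozygous over wild-type cells. *Rorb*, a nuclear receptor of layer 4, had 86.1, 98.8 and 121 CPM, with log2 ratios over wild-type of 0.20 (0.01 to 0.38) and 0.49 (0.30 to 0.69). Its droplet ratios were 0.36 (0.20 to 0.52) and 0.39 (0.25 to 0.53). *Rbp4*, whose promoter drives the Cre, had 12.3, 14.7 and 14.3 CPM, and its ratios of 0.26 and 0.22 had intervals that included 0. The *Rbp4* droplet ratios were 1.05 (0.74 to 1.36) and 0.22 (-0.10 to 0.53). Heterozygous typical cells lay below their droplets, at 14.7 against 22.7 CPM (-0.63, -0.94 to -0.31), and the interval of typical cells over droplets included 0 in the wild-type and homozygous libraries.

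Atypical cells differed from typical cells in which members they held, and since they were set apart by clustering on these same cells, the values are a description. *Bcl11b* was the highest member in atypical cells of every library, at 183 against 73.0 CPM in wild-type, 217 against 59.0 in heterozygous and 299 against 76.4 in homozygous. *Foxp2* was at 62.1 against 6.81 CPM, 27.7 against 5.09 and 40.3 against 8.23. *Tle4* was at 60.7, 64.7 and 71.1 CPM in atypical cells, with log2 ratios of 0.99, 1.32 and 1.23.

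*Fezf2* and *Tbr1* were on the other side. *Fezf2* had 13.3 CPM in wild-type, 9.25 in heterozygous and 8.05 in homozygous atypical cells, from 9, 2 and 6 UMIs, and *Tbr1* had 10.4, 9.25 and 4.03 CPM from 7, 2 and 3 UMIs. The log2 ratios over typical cells were -1.69, -2.37 and -2.69 for *Fezf2* and -1.41, -1.73 (-4.78 to 0.13) and -2.48 for *Tbr1*, so the heterozygous *Tbr1* interval includes 0. *Ldb2* had ratios of -0.46, -0.32 and -0.52, and its intervals included 0 in each library. *Sox5* had -0.08, -1.38 and -0.94, with an interval below 0 in the homozygous library. *Etv1* had 0 UMIs in heterozygous atypical cells, where a floor of 3 UMIs corresponds to 13.9 CPM, and ratios of 0.11 and -1.24 in the wild-type and homozygous libraries. *Nr4a2* had 3, 0 and 2 UMIs. Of all genes tested, 26.5%, 40% and 22.2% differed by more than 1.5-fold between these classes, and members are not counted against that share, since some passed the minimum level through 1 class alone.

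*Crym* was the member with intervals on opposite sides of 0. Its level in atypical cells was 66.6 CPM in wild-type, 27.7 in heterozygous and 134 in homozygous, from 45, 6 and 100 UMIs. The log2 ratio over typical cells was -0.13 (-0.62 to 0.33), -1.23 (-2.68 to -0.10) and 1.22 (0.88 to 1.54) in that order.

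Markers of striatal neurons were in sum higher in atypical than in typical cells of each library. The summed level of 14 measured striatal genes was 522, 638 and 723 CPM in atypical cells against 70.6, 63.9 and 90.5 in typical cells, and 0 of the 14 were at 0 UMIs in atypical cells of any library. *Ppp1r1b*, which encodes DARPP-32 of medium spiny neurons, reached 170, 240 and 290 CPM. The 9 excitatory markers summed to 114, 97.1 and 126 CPM and the 9 inhibitory markers to 266, 166 and 177 CPM in the same cells. The 5 blood genes summed to 345, 60.1 and 997 CPM in atypical against 345, 44.6 and 85.8 CPM in typical cells, so they were high in the homozygous library, where *Crym* was also high, and their part was not tested. Within atypical cells *Bcl11b* and a UMI of any striatal gene were found together 1.12, 1.14 and 1.05 times as often as depth and their shares predict, with intervals that include 1 in each library (0.872 to 1.43 in wild-type). The part of striatal cells in the atypical values was not tested.

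**Figure D3:**
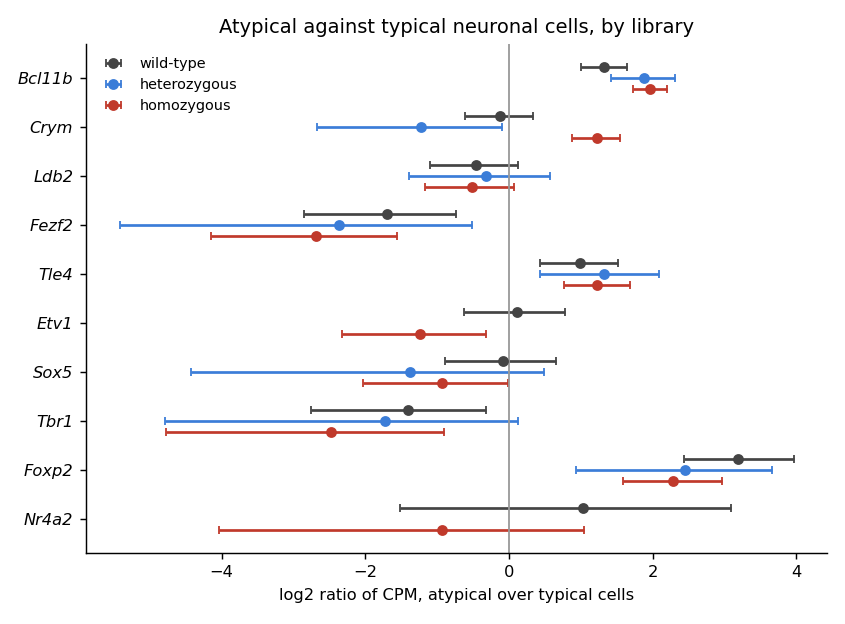
Log2 ratio of CPM of atypical over typical neuronal cells for each member and library, with 95% intervals of counting error, where a gene with 0 UMIs has no point. *Bcl11b*, *Foxp2* and *Tle4* lie above 0 and *Fezf2* below it in all 3 libraries, while *Crym* lies on both sides.

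All cells outside the neuronal table together were compared with typical cells, where 61%, 31.3% and 49.5% of all genes differed by more than 1.5-fold. The median log2 ratio of all genes was 0.62, 0.25 and 0.43, and 62.9%, 46.8% and 52.7% of them had intervals above 0. *Etv1* had log2 ratios of 1.51, 0.63 and 0.79, *Foxp2* of 1.53, 0.75 and 0.83 and *Tle4* of 0.63, 0.45 and 0.51. These lay above that median in each library, *Tle4* barely so in wild-type. *Fezf2* had -1.26, -0.84 and -1.44, *Crym* -1.37, -0.88 and -0.96, *Ldb2* -1.18, -0.48 and -1.02 and *Tbr1* -0.46, -0.38 and -0.57, all with intervals below 0. *Bcl11b* had -0.03, 0.17 and -0.19 with intervals that included 0. *Sox5* had 0.52, 0.20 and 0.33, below the median of all genes, and *Nr4a2* had 1.68, 0.30 and 0.94, above it.

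Outside the neuronal table, cells were put in sets by marker lists: a set needed at least 3 UMIs from at least 2 of its markers and a larger sum than any other list. The astroglial set is not described by name under this rule, because *Fabp7*, at 5713, 4775 and 5647 CPM in typical cells and at a like level in empty droplets, put 58.0, 52.8 and 45.8% of typical cells in it. 2 changes to the rule were tried after seeing this, namely leaving out *Fabp7* and leaving out all 7 markers that were under 2-fold higher outside the neuronal table, and values under them are given below for *Tbr1*, *Etv1*, *Sox5* and *Tle4*. The sets are small in the mutant libraries.

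*Tbr1* was highest in cells of the excitatory marker set. It had 245 CPM (178 to 329) in 37 wild-type cells from 44 UMIs, 296 CPM (162 to 497) in 11 heterozygous cells from 14 UMIs and 194 CPM (71.1 to 422) in 8 homozygous cells from 6 UMIs. In the wild-type set *Tle4* had 111 CPM and *Sox5* and *Fezf2* had 72.4 each. Without *Fabp7* in the astroglial list the excitatory set grew to 75, 106 and 20 cells and *Tbr1* stood at 207, 62.1 and 104 CPM, so its heterozygous level depends on the rule. With all 7 markers left out it stood at 204, 57.9 and 92.3 CPM. *Tbr1* was low in the inhibitory set, with 6.67, 3.48 and 3.63 CPM from 6, 1 and 1 UMIs, and had 2.80, 12.2 and 4.58 CPM in the endothelial set.

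The inhibitory set was high in *Etv1* and *Bcl11b*. *Etv1* had 250 CPM (219 to 285) in 328 wild-type cells, 136 (96.6 to 186) in 91 heterozygous cells and 105 (70.5 to 151) in 81 homozygous cells. *Bcl11b* had 149, 153 and 116 CPM there. Without *Fabp7* in the astroglial list *Etv1* had 217, 106 and 102 CPM, and 220, 108 and 106 CPM with all 7 markers left out. The *Etv1* ratio to wild-type was -0.88 (-1.41 to -0.39) in heterozygous and -1.25 (-1.86 to -0.69) in homozygous inhibitory cells, where 44.5% and 53.6% of all genes passed 1.5-fold. Of all genes 17.1% and 24.1% were lower past 1.5-fold, and 6.55% and 10.8% had intervals below 0. *Sox5* had ratios of -1.64 (-3.58 to -0.17) and -0.99 (-2.52 to 0.26) there, from 4 and 6 mutant UMIs. Other genes also differed between the libraries in this set: *Gad1*, which makes GABA, had 107, 219 and 341 CPM, *Dlx1* had 577, 456 and 218 CPM, and *Rbp4* had log2 ratios over wild-type of 2.38 and 2.68. The 14 measured striatal markers summed to 141, 432 and 566 CPM in this set, with 1, 3 and 3 of them at 0 UMIs. Whether the makeup of the set differed between libraries, and its part in the *Etv1* ratio, were not tested.

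Non-neuronal sets held other members. *Foxp2* had 58.4 CPM (31.9 to 97.9) in 59 meningeal marker cells of wild-type from 14 UMIs and *Nr4a2* had 29.2 CPM from 7 UMIs, against 6.81 and 2.18 CPM in typical cells. In the heterozygous meningeal set *Foxp2* had 107 CPM (34.8 to 250) and *Nr4a2* 85.7 CPM (23.4 to 219), from 5 and 4 UMIs, and in the homozygous set 29.8 and 14.9 CPM, from 2 and 1 UMIs. With astroglial cells named without *Fabp7*, *Sox5* had 58.7, 49.9 and 81.0 CPM and *Tle4* 66.3, 36.9 and 61.3 CPM in them. With all 7 markers left out *Sox5* had 60.3, 56.5 and 86.2 CPM and *Tle4* 66.1, 44.9 and 60.5 CPM. *Tle4* had 33.6, 51.9 and 50.4 CPM in the endothelial set.

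**Figure D4:**
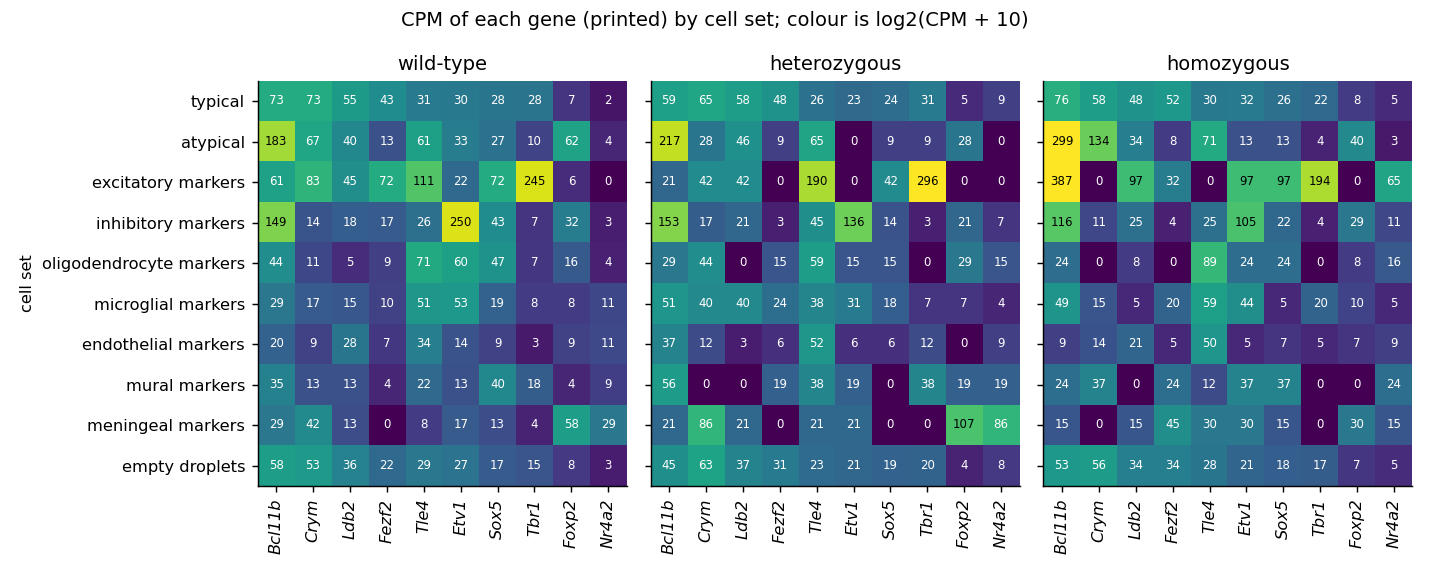
CPM of each gene (numbers in the cells, colour on a log2 scale after adding 10 CPM) in typical and atypical neuronal cells, in marker sets outside the neuronal table and in empty droplets, 1 panel per library. *Tbr1* is highest in the excitatory marker set of every library (245, 296 and 194 CPM) and *Etv1* in the inhibitory marker set (250, 136 and 105 CPM).

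Co-detection within typical cells was near what depth and the single shares predict. Of 45 pairs, 28 had an expected count of at least 5 cells in every library. The ratio of observed to expected had a median of 1.09 in wild-type, 1.06 in heterozygous and 0.953 in homozygous cells. Its interval lay above 1 for 1, 2 and 2 of the 28 pairs and below 1 for 0 in each library.

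The highest pairs were *Tle4* with *Sox5*, *Tbr1* with *Ldb2* and *Tbr1* with *Crym*. *Tle4* and *Sox5* were found in 11 wild-type cells with 6.12 expected, in 14 heterozygous cells with 12.6 expected and in 10 homozygous cells with 6.87 expected. *Tbr1* and *Crym* shared 52 heterozygous cells with 36.1 expected, a ratio of 1.44 (1.07 to 1.89), and *Tbr1* and *Ldb2* shared 18 homozygous cells with 9.58 expected, a ratio of 1.88 (1.11 to 2.97). Neither interval excluded 1 in the other libraries. With cells thinned to 1000 UMIs the heterozygous *Tbr1* and *Crym* ratio was 1.06, the homozygous *Tbr1* and *Ldb2* ratio 2.46 and the wild-type *Tle4* and *Sox5* ratio 0.

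The lowest pairs were *Tbr1* with *Sox5*, *Fezf2* with *Sox5* and *Tbr1* with *Etv1*. *Fezf2* and *Sox5* had ratios of 0.805, 0.614 and 0.566 with intervals that reached above 1. *Tbr1* and *Sox5* shared 2 wild-type cells with 5.98 expected, 16 heterozygous cells with 15.7 expected and 3 homozygous cells with 5.02 expected. *Tbr1* and *Etv1* had ratios of 0.643, 0.906 and 0.948. With *Cux2*, *Rorb* and *Rbp4* as partners outside the list, 19 of 30 pairs had at least 5 expected cells in every library, and 0, 3 and 1 of the 19 had an interval below 1 and 0 above. *Fezf2* and *Cux2* shared 3, 25 and 12 cells with 8.07, 37.9 and 21.2 expected, and the interval lay below 1 in both mutant libraries (0.427 to 0.973 and 0.292 to 0.988).

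**Figure D5:**
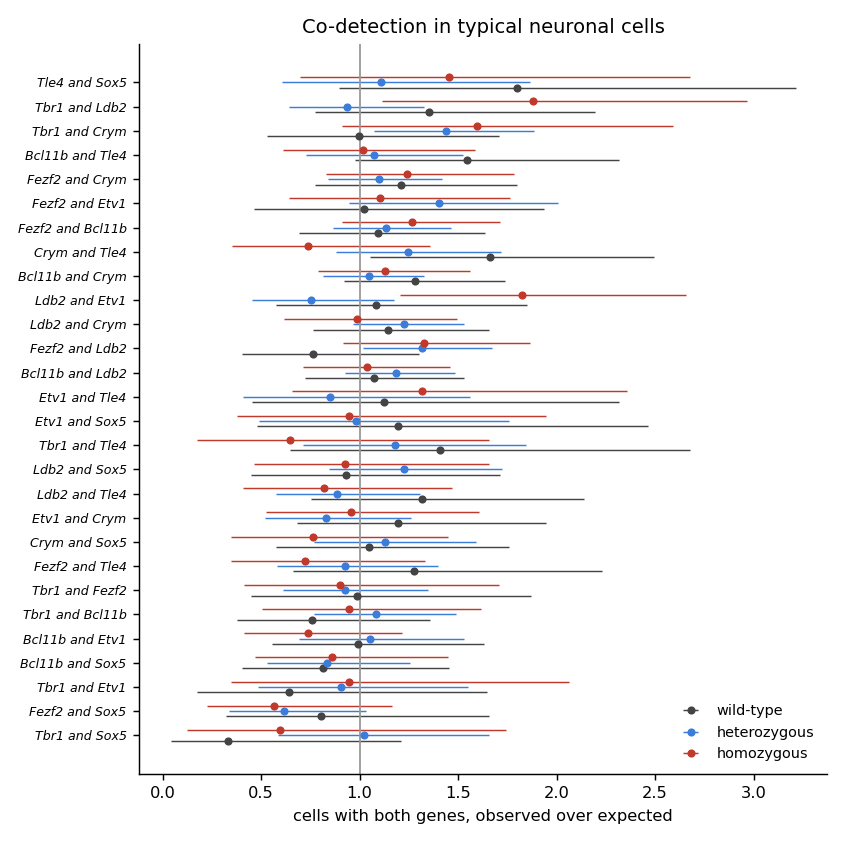
Cells with both genes, observed over expected within 10 bins of depth, for the 28 pairs with at least 5 expected cells in every library, with 95% Poisson intervals. Most intervals cross 1, and *Tle4* with *Sox5* has the highest mean ratio.

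Outside the neuronal table, where cell types are mixed, 3 of the 45 pairs computed were named after their values were seen. Their intervals lay above 1 in the wild-type library, and how many other pairs had such intervals is not reported here. *Bcl11b* and *Etv1* shared 143 wild-type cells with 90.5 expected (1.58, 1.33 to 1.86), against 15 with 15.2 expected in typical wild-type cells. *Tbr1* and *Tle4* shared 33 with 17.0 expected (1.94, 1.34 to 2.72), and *Tbr1* and *Sox5* shared 25 with 12.8 expected (1.95, 1.26 to 2.88). In the mutant libraries *Bcl11b* and *Etv1* shared 25 and 21 cells with 21.7 and 13.3 expected, and both intervals included 1. *Tbr1* and *Sox5* shared 9 and 7 cells there with 6.66 and 2.35 expected, and the homozygous interval lay above 1 (1.20 to 6.15). *Tbr1* and *Tle4* shared 11 and 4 cells with 8.56 and 3.65 expected.

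Likeness of other genes was measured over 30 sums of a library and cell set, which share libraries and differ in depth, so it is a description. Sums under 50000 UMIs were left out, so the excitatory set entered from the wild-type library only, with 37 cells. Among 5937 genes the Pearson r of log2(CPM + 10) with *Tbr1* was highest for *Nrn1* (0.826) and *Cacna2d1* (0.783), and with *Fezf2* for *Bhlhe22* (0.807) and *Neurod2* (0.794). *Nrn1*, *Bhlhe22* and *Neurod2* are on the excitatory marker list that formed one of the sets. For *Bcl11b* the closest genes were *Add2* (0.846) and *Rab3c* (0.829), and *Etv1* was closest to *Tiam2* (0.882). *Ldb2* was closest to *Tubg2* (0.873) and *Ngef* (0.816) and *Crym* to *Ociad2* (0.834) and *Pbx4* (0.817). For *Tle4* they were *Ubl3* (0.708) and *Psat1* (0.666), for *Sox5* *Ssbp2* (0.75) and *Tubb4b* (0.747), for *Foxp2* *Nnat* (0.685) and *Carhsp1* (0.639) and for *Nr4a2* *Stx4a* (0.757) and *Zfp950* (0.707).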

How the data were processed

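Cells of P5 mPFC were sorted on *tdTomato* and 1 library per genotype was made with the 10x Chromium Single Cell 3′ version 2 kit. The authors aligned reads to mm10 and counted UMIs with Cell Ranger 2.0.1. The deposited counts are raw UMIs per gene and cell, in a matrix of all barcodes and in a filtered table of 17396 cells and 14933 genes. The authors had removed cells over 30% mitochondrial UMIs, outside 500 to 10000 UMIs or outside 500 to 3000 genes. The shallowest filtered cells lay well above 500 UMIs, at a depth that differed between libraries. Their scaled and log-transformed tables were not used.

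UMIs were summed per library and cell class and scaled to the class total (CPM), with exact Poisson intervals. Ratios have exact conditional binomial intervals and shares Clopper-Pearson intervals, all 95%. No test between genotypes was made, and cells were not treated as replicates. Ratios across genes used a mean of at least 10 CPM over both groups, which all members but *Foxp2* and *Nr4a2* passed between genotypes in typical cells. Co-detection was set against independence within 10 depth bins. No doublet caller was run. Alternatives changed the scaling, the filter on low values, the depth bins, the cells included and the marker rule, or subtracted the empty-droplet profile. Intervals and co-detection were checked on counts simulated as independent Poisson draws. That check does not cover clustering of UMIs within cells, which would widen the intervals. Named were all 10 members, with *Cux2*, *Rorb* and *Rbp4*, layer genes past 1.5-fold in both mutant libraries, the 2 genes most like each member and the 3 highest and 3 lowest pairs. A few values under this rule are not reported here. The members and lists were chosen with earlier results of these data known. Python 3.11.15, scipy 1.17.1 and edgeR 4.0.16 (for TMM factors only) were used.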

Additional observations from a re-analysis of the deposited data

Results flagged for a closer look

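*Crym* was set apart because the atypical over typical ratio had opposite directions in the mutant libraries. The log2 ratio was 1.22 in homozygous cells, from 100 atypical *Crym* UMIs, and -1.23 in heterozygous cells, from 6. With 1 library per genotype the difference between them was not tested.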

How the results depend on the processing

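No paired analysis was possible because each genotype had 1 library. No ratio whose interval excluded 0 changed sign under the alternatives that were run. When levels were taken as raw UMIs per cell, 3 members passed 1.5-fold in homozygous over wild-type (*Tbr1*, *Ldb2* and *Crym*, all lower, beside 23.2% of all genes) and 2 in homozygous over heterozygous cells (*Tbr1* and *Ldb2*, both lower, beside 8.2%), against 0 in both by CPM. On that scale the median log2 ratio of all genes was -0.36 and -0.32, against 0.06 and 0.01 by CPM. In homozygous over heterozygous cells 1 member passed after thinning (*Etv1*, beside 2.92% of all genes) and 1 with atypical cells included (*Bcl11b*, beside 1.91%), both higher. Genes past 1.5-fold numbered 480 (heterozygous over wild-type), 453 (homozygous over wild-type) and 110 (homozygous over heterozygous). They became 3604, 3790 and 2629 when 1 UMI in both libraries sufficed, and 116, 87 and 23 at a minimum mean of 50 CPM. The genes tested differ between these filters in number and in level, so the counts are not to be read as shares. Of the alternative values, 20 of 270 genotype ratios (16 by raw UMIs per cell, 4 with atypical cells included), 6 of 174 cell class ratios, 7 of 72 co-detection ratios (all 7 after thinning to 1000 UMIs in 1 bin, 4 of 6 named pairs in wild-type, 2 in heterozygous and 1 in homozygous cells), 11 of 60 marker set values and 28 of 60 shares (28 of 30 without thinning, 0 of 30 with a second seed) moved by more than their counting interval. In typical cells *Foxp2* and *Nr4a2* had the fewest UMIs of the 10 genes.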
